A study of Mus musculus with 7 samples.

Results

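The genes of mesenchymal transcription factors, the regulators that hold fibroblasts in a fibroblast state and that epithelial cells switch on when they turn mesenchymal, were examined for nearby binding of JUNB. The set has 9 members of 21900 protein-coding mouse genes: the zinc finger genes Snai1, Snai2, Zeb1 and Zeb2, the basic helix-loop-helix genes Twist1, Twist2 and Tcf21, and the homeobox genes Prrx1 and Meox1. JUNB had been mapped by CUT&RUN, in which a nuclease tethered to an antibody releases the DNA around the bound protein. Peaks listed for 4 JUNB libraries were joined into 12655 regions wherever they overlapped by at least 1 bp, and each region was given to the protein-coding gene whose start or end lay nearest to its median summit, within 100 kb. By this rule the 9 genes held 16 regions.

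The cells were iMGT-Myh6-eGFP-MEF, a single line of mouse embryonic fibroblasts in which doxycycline switches on the cardiac factors Mef2c, Gata4 and Tbx5 (MGT) and which carries an eGFP reporter of the cardiomyocyte gene Myh6. The siChst7 group (2 libraries) had been transfected with siRNA against Chst7, a sulfotransferase of chondroitin sulfate, and the siControl group (2 libraries) with control siRNA. Both groups received doxycycline and were collected at day 1 of MGT expression, so neither shows fibroblasts without MGT. The labels differ among themselves: the protocol text lists siJunb, siH1f0 and siControl but no siChst7, and the groups here follow the titles and treatment labels. An siRNA against Junb would act on the very protein that was mapped. The comparison asks whether JUNB sits at other places near these genes when Chst7 is targeted. The labels speak of biological replicates without naming separate cultures, so p-values measure the spread between these libraries, which may be technical. The 3 IgG libraries were left out of the analysis, which therefore gives no antibody background. Peak lists hold no expression, and the fibroblast label could not be checked against marker genes.

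JUNB is a subunit of AP-1, a family of leucine zipper dimers that bind the palindrome TGANTCA and respond to growth factors, serum and stress. SNAI and ZEB proteins are zinc finger repressors of epithelial genes such as Cdh1 and bind E-boxes, DNA of the form CANNTG, while TWIST proteins and TCF21 bind E-boxes as dimers with E proteins. PRRX1 is a homeodomain factor of limb and craniofacial mesenchyme, TCF21 a regulator of epicardial and cardiac fibroblast lineages, and MEOX1 a homeodomain factor of the somites that has been tied to the activated state of cardiac fibroblasts.

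Listed JUNB regions stood near 7 of the 9 genes, where 25.1% of all protein-coding genes held one in at least 1 list. None of the 9 RefSeq promoter windows at hand, from 6 members, met one. The share of all promoter windows that meet a region is not given here, so this is not read as a trait of the members. Of all regions within 100 kb of a gene, 13.9% lay within 1 kb of a gene end. Sequence could be read for part of 1 region, 10.3 kb beyond the end of Snai1, because the promoter window of the long non-coding RNA gene Gm11476 lies in it; these are 300 of its 1058 bases. The siChst7 replicate 1 peak spans the whole window, and the other 3 libraries' peaks end inside it. It is set here beside the Snai1 promoter window and the only member window with the AP-1 letters, one of 4 windows of Zeb2. Capitals mark each TGANTCA and each CANNTG, searched on both strands (both motifs read the same on either strand and no match overlapped another). Windows are 5′ to 3′ from RefSeq on GRCm38.p6, the assembly of mm10.
Gm11476 window in a Snai1 region, chr2:167553062-167553361, plus strand: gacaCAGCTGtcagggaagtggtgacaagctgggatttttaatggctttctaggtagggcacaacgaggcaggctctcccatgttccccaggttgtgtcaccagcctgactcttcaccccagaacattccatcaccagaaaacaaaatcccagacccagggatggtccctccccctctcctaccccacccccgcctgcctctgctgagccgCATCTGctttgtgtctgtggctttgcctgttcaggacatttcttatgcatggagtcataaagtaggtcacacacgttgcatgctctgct
Snai1 promoter window, chr2:167537945-167538244, plus strand: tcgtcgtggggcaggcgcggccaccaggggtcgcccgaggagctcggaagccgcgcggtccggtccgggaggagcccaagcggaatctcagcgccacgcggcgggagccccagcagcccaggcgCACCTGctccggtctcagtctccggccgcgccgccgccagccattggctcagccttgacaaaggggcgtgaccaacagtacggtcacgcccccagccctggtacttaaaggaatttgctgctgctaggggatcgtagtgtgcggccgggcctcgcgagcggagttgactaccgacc
Zeb2 promoter window, chr2:45110228-45110527, minus strand: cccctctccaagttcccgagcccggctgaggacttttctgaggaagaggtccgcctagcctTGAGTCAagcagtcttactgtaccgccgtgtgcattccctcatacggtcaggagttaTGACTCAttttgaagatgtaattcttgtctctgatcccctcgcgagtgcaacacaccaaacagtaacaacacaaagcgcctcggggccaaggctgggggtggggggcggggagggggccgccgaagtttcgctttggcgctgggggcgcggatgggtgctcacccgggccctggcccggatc
The Gm11476 window held no TGANTCA, which says nothing of the rest of the region, and 2 E-boxes, CAGCTG at base 5 and CATCTG at base 212, counted from the 5′ end. Its listed summits lay at base 51 in siChst7 replicate 1 and 9 bases before the window in siChst7 replicate 2, and 1 base before the window in siControl replicate 1 and at base 115 in siControl replicate 2. The Snai1 window held 1 E-box, CACCTG at base 125, the form that SNAI1 protein itself is known to bind. The Zeb2 window held TGAGTCA at base 62 and TGACTCA at base 119, yet the median summit of the nearest region was 90.7 kb away. Across all 32851 promoter windows, 7.81% held TGANTCA and 72.3% held CANNTG, against 1 and 1 of the members' 9. Those 9 windows come from 6 members, with 4 from Zeb2, of which 2 overlap each other. They are therefore not independent, and the shares were not tested.

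**Figure D1:**
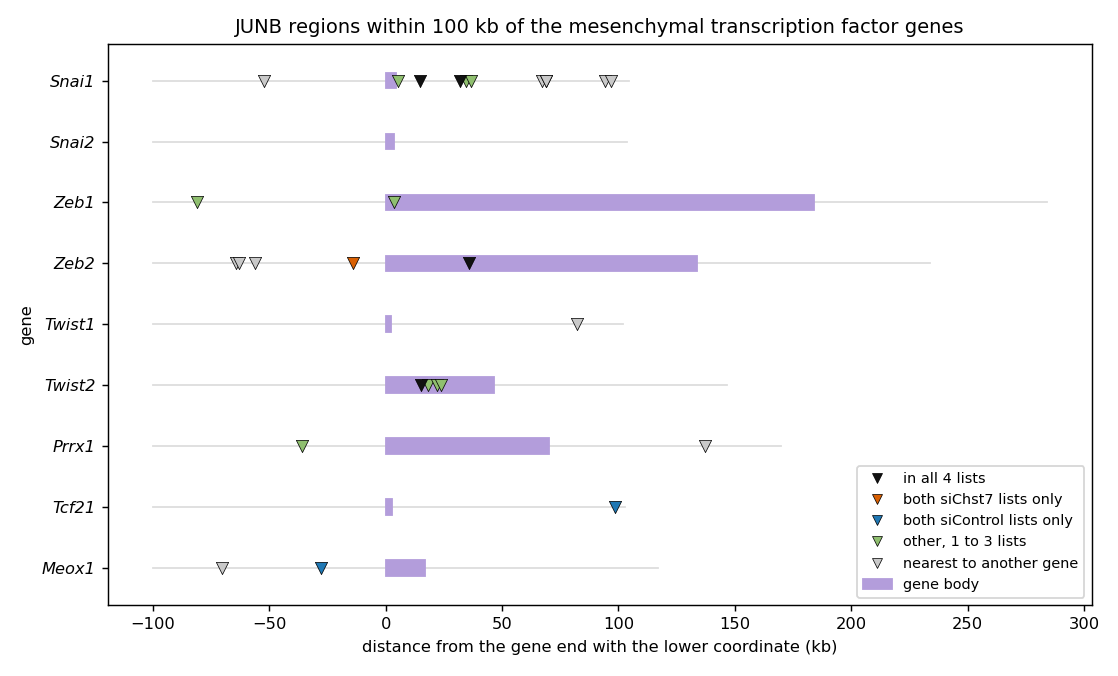
Position of JUNB regions (triangles) within 100 kb of each gene, in kb from the gene end with the lower coordinate (0), with the gene body as a purple bar; triangle colour gives the lists that held the region, and grey triangles are regions whose nearest gene end belongs to another gene. The 5 Snai1 regions lie on one side of the gene, the 4 Twist2 regions lie inside it, and Snai2 has no triangle.

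Snai1 (gene ID 20613, chr2:167538195-167542814), which encodes the repressor SNAIL, held the most regions of the set by the rule used here. Its 5 regions spanned 31.8 kb, all on the 3′ side of the gene. Inside the long non-coding RNA gene Gm11476 lay 3 of them, and 2 of these also lay inside the long non-coding RNA gene Gm31619. Of all protein-coding genes, 1.84% held 5 or more regions. The genome nearest to Snai1 was 48.0 kb long, which gives 10.4 regions per 100 kb, against 0.649 per 100 kb around all protein-coding genes. Of the 5, siChst7 replicate 1 alone listed 2: without that library Snai1 and Twist2 held 3 regions each, and the density at Snai1 was 6.24 per 100 kb. Both genes also held equal numbers with summits and 100 bp on each side (5 each) and within 20 kb (2 each). With gene bodies and 5 kb on each side Snai1 held 1 and Twist2 held 4, so the rank of Snai1 depended on the rule. In the full set the other members' 11 regions fell at 0.755 per 100 kb of their genes' surroundings, a split made after the values were seen.

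Among the Snai1 regions, 2 stood in all 4 lists, a number that 1.87% of all genes reached. The number fell to 1 with a fold of at least 5, at equal list length and within 20 kb, and to 0 with gene bodies and 5 kb. It was 2 or 3 under the other alternatives, and with 1 library left out only the remaining lists had to hold the region. At least 1 region in all 4 lists was held by 8.32% of all genes as reported. The first of the 2 regions, chr2:167552508-167553565, is the region that holds the Gm11476 window and lay 10.3 kb from the gene. Its fold enrichments, the authors' peak heights over local background, were 15.7 and 7.94 in siChst7 replicates 1 and 2, and 4.42 and 8.81 in siControl replicates 1 and 2. Ordered by p, its peak was in the top 5.50% and 30.9% of the siChst7 lists, and at 90.0% and 19.8% of the siControl lists, so that siControl replicate 1 carried it near the foot of its list. The second, chr2:167569690-167570520, lay 27.5 kb from the gene and inside Gm11476. Its folds were 8.49 and 9.75 in siChst7, and 17.2 and 9.03 in siControl, and here siControl replicate 1 placed it in its top 3.74%. The libraries thus put these neighbouring regions in different order within their lists, and the siChst7 and siControl folds overlapped at both. Folds come from lists with thresholds of their own and were not tested between libraries.

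The other 3 Snai1 regions were listed less widely. A region 32.2 kb out (chr2:167574462-167575295) had a fold of 9.47 in siChst7 replicate 1, none listed in siChst7 replicate 2, and folds of 10.6 and 8.41 in siControl. Regions 0.8 kb and 29.8 kb out were listed in siChst7 replicate 1 alone, with folds of 10.8 and 4.78. The closer one, chr2:167543506-167544027, was the only member region within 1 kb of a gene end, 1 of 16 (6.25%), against 13.9% of all regions within 100 kb of a gene. A window of 100 kb on each side of Snai1 held 11 regions, of which 5 were nearest to Ube2v1, the neighbouring ubiquitin-conjugating enzyme variant gene, and 1 to Spata2. None of these neighbours' regions was in more than 2 lists.

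Snai2 (gene ID 20583, chr16:14705852-14709395), which encodes SLUG, the closest relative of SNAIL here, held no region in any list. Its surroundings were longer than those of Snai1, at 138 kb, and the nearest region, listed in 1 library, was 118 kb from the gene. A related gene outside the set, Snai3, had 1 region in all 4 lists, 0.8 kb from its end.

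In the Twist pair, too, one gene held regions and the other none. To hold none was the common case, since 25.1% of all protein-coding genes held a region in at least 1 list. Twist2 (gene ID 13345, chr1:91801461-91848034), a basic helix-loop-helix factor of dermis and mesenchyme also called Dermo1, held 4 regions, all inside the gene and all within the long non-coding RNA gene Gm46117. Whether they lie in exons or introns was not analysed here. The region 15.2 kb from the start of Twist2, chr1:91816130-91817157, was in all 4 lists, with folds of 14.3 and 6.59 in siChst7, and 16.6 and 17.4 in siControl. It stood in the top 8.01% and 52.9% of the siChst7 lists, and in the top 4.22% and 3.26% of the siControl lists. Both siControl folds were above both siChst7 folds, but siChst7 replicate 1 was far closer to siControl than to its own partner. The other 3 Twist2 regions were single-library calls, 2 from siControl replicate 1 (folds 4.15 and 5.80) and 1 from siChst7 replicate 1 (fold 5.90). Twist1 (gene ID 22160, chr12:33957671-33959831), whose product acts in neural crest and head mesenchyme, held none in its 60.2 kb. The surroundings of Twist2 were longer, at 187 kb, unlike the Snai pair, where the gene without regions had the longer ones. The part of this length in the Twist split was not tested. The nearest region, chr12:34039964-34040320, lay 80.2 kb from Twist1 and 7.5 kb from Hdac9, a histone deacetylase gene, to which the rule gave it. It was listed in both siChst7 libraries, with folds of 4.90 and 5.16, and in neither siControl library.

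Zeb2 (gene ID 24136, chr2:44983512-45117442), which encodes the repressor SIP1, held 2 regions. The one inside the gene, chr2:45019015-45020027, was in all 4 lists, with folds of 9.51 and 6.25 in siChst7, and 10.5 and 6.32 in siControl. The values of the groups interleaved, with the replicate 1 library above the replicate 2 library in each. The other, chr2:44969287-44969782, lay 14.0 kb beyond the 3′ end. It had folds of 8.65 and 6.63 in siChst7 and was in neither siControl list. A further 3 regions within 100 kb of Zeb2 were nearest to Gtdc1, each in 1 list.

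Zeb1 (gene ID 21417, chr18:5591327-5775468), the paralog of Zeb2, held 2 regions and none in all 4 lists. A region 81.2 kb from the gene, chr18:5509897-5510637, inside the long non-coding RNA gene Gm10125, had folds of 8.44 and 6.28 in siChst7, 4.78 in siControl replicate 1 and none listed in siControl replicate 2. Its siControl replicate 1 peak stood at 91.1% of that list, and the region became one of both siChst7 lists and neither siControl list when folds under 5 were left out or the lists were cut to equal length. Its summits spanned 326 bp, and with 50% reciprocal overlap the siChst7 peaks no longer joined. A region 3.6 kb inside Zeb1 was listed in siChst7 replicate 1 alone, with a fold of 5.77.

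**Figure D2:**
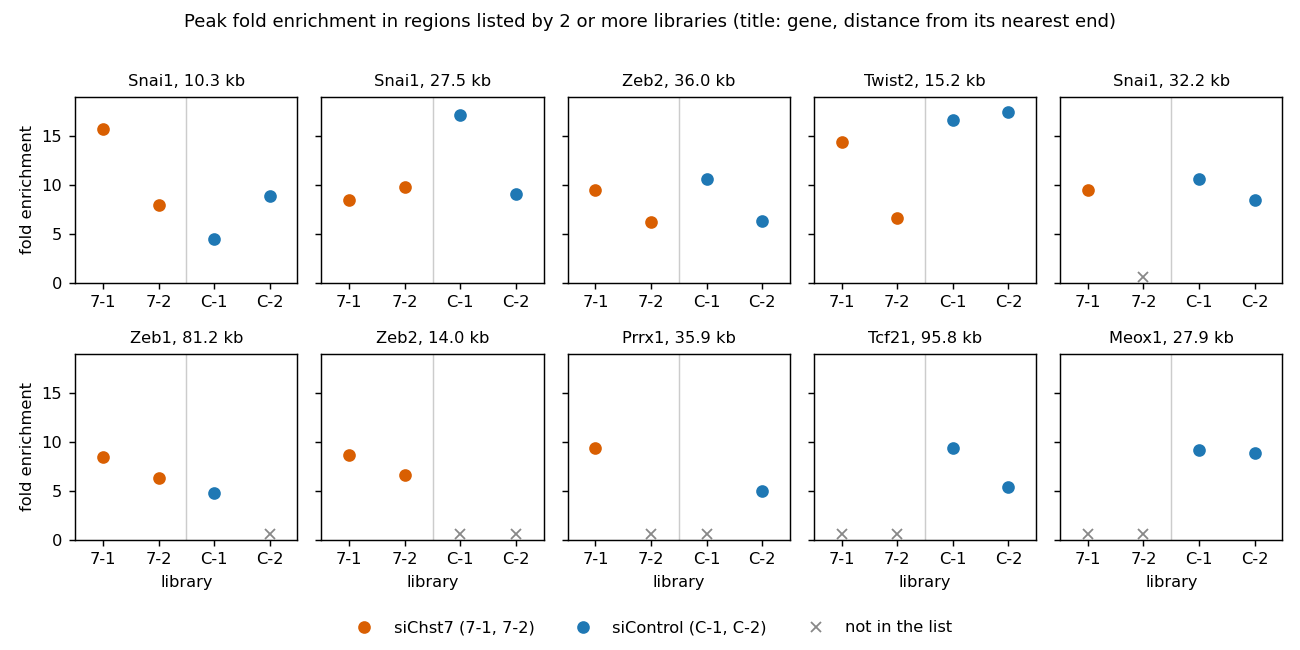
Fold enrichment of the authors' peaks (vertical axis, linear) in each of the 10 member regions listed by 2 or more libraries, siChst7 replicates 1 and 2 (7-1, 7-2, orange) left of siControl replicates 1 and 2 (C-1, C-2, blue); a grey cross marks a region missing from that list. The first 4 panels are the regions of all 4 lists, and the panels for Zeb2 at 14.0 kb, Tcf21 and Meox1 are those listed by 1 group.

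The remaining homeobox and helix-loop-helix genes held 1 region each, and none was in all 4 lists. The Meox1 region (gene ID 17285, chr11:101877510-101894354; region chr11:101849284-101849904, 27.9 kb away) was in neither siChst7 list and had folds of 9.19 and 8.84 in siControl. These placed it in the top 25.7% and 24.0% of the siControl lists. The Tcf21 region (gene ID 21412, chr10:22817263-22820143; region chr10:22915894-22916265, 95.8 kb upstream) was likewise in neither siChst7 list and had folds of 9.37 and 5.34 in siControl. It lay close to the 100 kb limit of the rule, and no nearer region was listed for the gene. The Prrx1 region (gene ID 18933, chr1:163245119-163315145; region chr1:163209148-163209423, 35.9 kb beyond the 3′ end) was split across the groups, with folds of 9.41 in siChst7 replicate 1 and 4.95 in siControl replicate 2. A second region within 100 kb of Prrx1, nearest to Gorab, was in both siChst7 lists and in siControl replicate 2.

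Regions in all 4 lists made up 4 of the 16 member regions (25.0%), against 22.0% of all 12655 regions, a share near the background. Single-list regions made up 6 of 16 (37.5%), against 46.7% of all. Of the 6, siChst7 replicate 1, the longest list, supplied 4 and siControl replicate 1 supplied 2. The 4 regions of all lists were 831 to 1058 bp wide, beside a median of 925 bp for the 2785 such regions genome-wide, and their summits agreed to within 93 to 368 bp, beside a median of 209 bp. The Twist2 and Zeb2 regions had the wider summit spreads (368 and 258 bp), and neither stayed a region of all 4 lists when summits with 100 bp on each side replaced the peaks. Member regions lay 25.1 kb from the gene end in the median, beside 13.1 kb for all regions within 100 kb of a gene, and 6 of 16 (37.5%) lay inside the gene itself, beside 56.3% of all such regions inside some protein-coding gene. The genome nearest to a member was also longer, with a median of 145 kb against 46.4 kb for all genes. The part of this length in the distances was not tested.

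**Figure D3:**
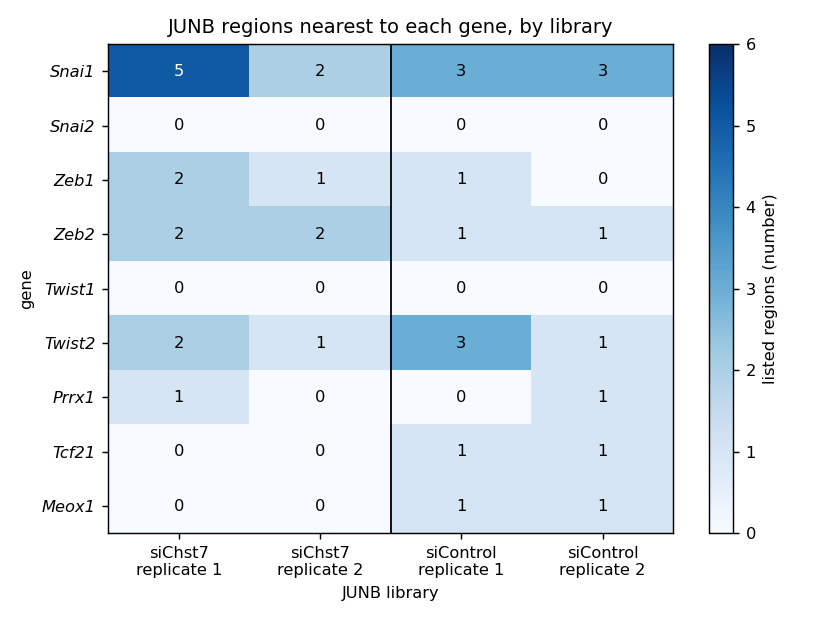
Number of listed JUNB regions (colour and digit) nearest to each of the 9 genes, with siChst7 libraries left of siControl libraries. Snai1 has 2 to 5 regions in every library, Snai2 and Twist1 have 0 throughout, and Tcf21 and Meox1 have 1 in each siControl library and 0 in each siChst7 library.

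Between the siRNA groups, the number of member regions per library did not differ beyond its spread. The siChst7 libraries listed 12 and 6 member regions (mean 9.0 ± 4.24, SD, n = 2), and the siControl libraries 10 and 8 (mean 9.0 ± 1.41, SD, n = 2). On the log2(number + 1) scale the means differed by −0.061, siChst7 minus siControl (two-sided exact permutation p = 1; with 2 libraries against 2 the p cannot go below 0.333). The siChst7 libraries enclosed both siControl values. These numbers moved with the length of the lists, which was 10163 and 4735 peaks in siChst7, and 6469 and 5827 in siControl; the part of list length in them was not tested beyond the alternative with equal lengths. As a share of the list, member peaks made up 0.118% and 0.127% in siChst7, and 0.155% and 0.137% in siControl (difference −0.024 percentage points, exact permutation p = 0.333, the smallest possible). Without siChst7 replicate 1 the log2 difference was −0.51, and without siChst7 replicate 2 it was 0.39.

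By gene, 4 of the 9 members held a region in both siChst7 lists (Snai1, Zeb1, Zeb2 and Twist2) and 5 in both siControl lists (Snai1, Zeb2, Twist2, Tcf21 and Meox1). Among all protein-coding genes the shares were 11.3% and 11.0%. Members with a region in all 4 lists were Snai1, Zeb2 and Twist2, 3 of 9, against 8.32% of all genes. The members were chosen with such results known, and the genome nearest to a member was longer (median 145 kb) than that of all genes (46.4 kb), so these shares were not tested. Over the whole surroundings of the 9 genes the density was 1.06 regions per 100 kb, and 0.266 per 100 kb for regions in all 4 lists, against 0.649 and 0.142 around all genes. Both member densities leaned on Snai1, which held 2 of the 4 regions in all 4 lists, at 4.16 per 100 kb of its surroundings. Without Snai1 the density of all member regions was 0.755 per 100 kb. These densities are therefore not read as a trait of all 9 genes.

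Regions that separated the groups were 1 siChst7-only region (Zeb2, 14.0 kb) and 2 siControl-only regions (Tcf21 and Meox1), meaning both lists of one group and neither of the other. The siChst7-only class held 3.88% of all regions and the siControl-only class 1.60%, against 1 and 2 of 16 here. By gene, 1.81% of all protein-coding genes held a siChst7-only region and 0.795% a siControl-only region, against 1 and 2 of the 9 members. Presence of a single region was not tested, as an exact permutation of 2 libraries against 2 cannot go below p = 0.333, and absence from a list does not mean absence of signal, which may have fallen short of the caller's threshold. The libraries are bulk populations, so strong binding in few cells and weak binding in many cannot be told apart. The group-only counts moved when a library was left out, since a region then needs 1 list of the reduced group, or absence from 1: without siChst7 replicate 2 the siChst7-only count was 5, without siControl replicate 1 it was 2, and without siControl replicate 2 the siControl-only count was 4.

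Lists of related genes, 61 in all, stood beside the members. Of 13 paralogs and partner factors, 6 held a region in both siChst7 lists and 5 in both siControl lists, among them Id2 and Id3, which encode inhibitors that sequester E proteins, and the E protein gene Tcf4. Hand2, a heart and limb helix-loop-helix gene, held a siChst7-only region with folds of 7.50 and 6.31. Meox2, Prrx2, Tcf3, Tcf15 and Msc held none in any list. Of 20 other regulators of the mesenchymal and fibroblast state, 7 held a region in both siChst7 lists and 6 in both siControl lists. Runx1 and Tead1 had 4 regions in all 4 lists each, Ets2 had 3 and Ets1 had 2, while all 5 forkhead genes of the list and Osr1, Osr2, Tbx18 and Wt1 had no region at all. Tead1, a partner of YAP, also held 2 siChst7-only regions and Sox9, a cartilage regulator, held 1.

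Genes of the mesenchymal and epithelial states held regions too. Of 12 mesenchymal genes of the transition, 7 held a region in both siChst7 lists and 6 in both siControl lists. Axl, Cdh2, Itga5 and Vim had 1 region in all 4 lists each. Of 16 epithelial genes, 4 held a region in both siChst7 lists and 5 in both siControl lists: Krt18 and Tjp1 had 2 regions in all 4 lists each and Epcam and Krt8 had 1 each, whereas Cdh1, the textbook target of SNAI and ZEB repressors, had none in both libraries of either group. The 4 lists held 5 siChst7-only regions and 0 siControl-only regions, beside 1 and 2 for the members. Among all regions these classes held 3.88% and 1.60%. The total number of regions in the 4 lists is not given here, so these counts are not read as a contrast with the members. No list was tested against another. All 5 lists, epithelial genes included, lay above the shares of all protein-coding genes in both groups, and all had longer surroundings: medians were 60.6 kb for paralogs and partners, 190.7 kb for other regulators, 62.4 kb for mesenchymal and 51.5 kb for epithelial genes, against 46.4 kb for all genes. The part of this length in the shares was not tested.

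**Figure D4:**
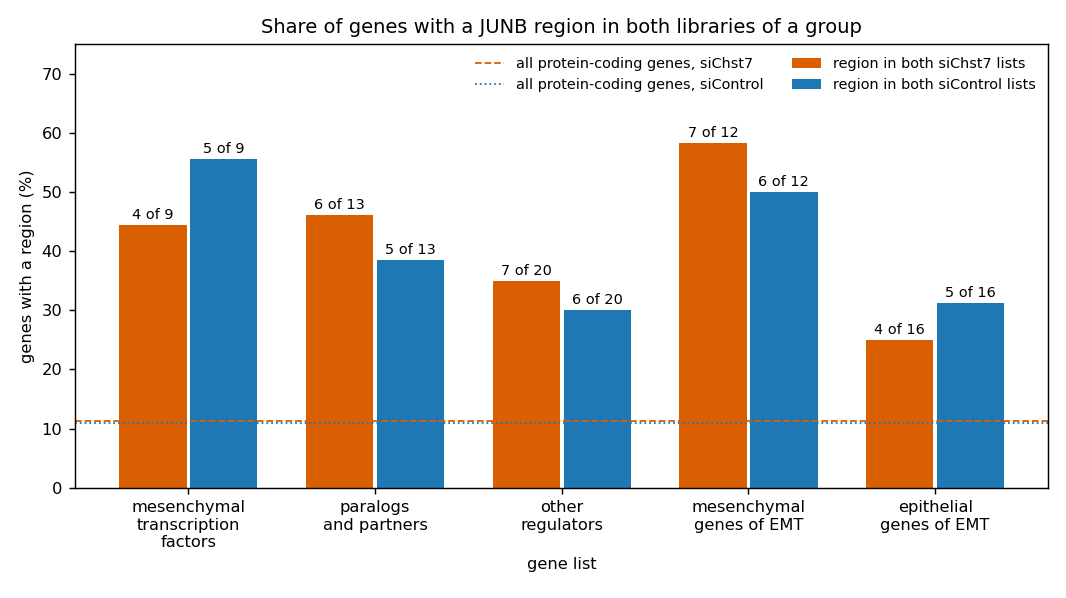
Percentage of genes in each list that hold a JUNB region in both libraries of a group, siChst7 (orange) left of siControl (blue), with the number of genes above each bar; the dashed and dotted lines give the shares of all protein-coding genes, 11.3% for siChst7 and 11.0% for siControl. Bars rest on 9 to 20 genes, carry no error, and stand above the lines in every list.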

How the data were processed

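JUNB CUT&RUN peak lists of 4 libraries were used, matched to their libraries by the peak names inside them. Bowtie2, MACS3 and mm10 are named, without versions or settings, in the submitters' processing notes. Whether IgG served as control was not given in the sources used here. The deposited peaks carry a fold enrichment, a ratio given by the authors' peak caller, and the authors' p-value and q-value as −log10; each list ends near a −log10 q of 2. No read counts were analysed, so the depth is unknown beyond the 30 M reads that the labels state for a library.

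Peaks overlapping by at least 1 bp were joined and given to the nearest end of a RefSeq protein-coding gene (GRCm38.p6) within 100 kb. Positions are 1-based. Joining and assignment were tested on simulated lists. All 61 related genes matched the table. Members, lists and tests were chosen with earlier results of these data known. Every member region in all 4 lists or in 1 group is named, and up to 4 genes per related list by their number of regions in all 4 lists, then by alphabet; further genes, such as those without regions, were named after their values were seen. An item that the rule names is not reported here. Numbers per library were compared by two-sided exact permutation. Promoter sequences are from RefSeq; the protein comparison that was planned was not run. Alternatives were joining by summit windows (100 bp to either side) or by 50% reciprocal overlap, peaks with a fold of at least 5, peaks with q up to 0.001, lists shortened to equal length by p, assignment within 20 kb, gene bodies extended by 5 kb, any region within 100 kb of the gene, leaving out each library, a replicate block and the share of the list. Scripts ran in Python 3.11.15 with SciPy 1.17.1, pandas 2.3.3, NumPy 2.4.6 and Matplotlib 3.10.9.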

Additional observations from a re-analysis of the deposited data

How the results depend on the processing

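The difference in member regions per library was near 0 and its sign was not stable. It was 0.0080 with a q of at most 0.001, 0.20 with a fold of at least 5, 0.50 with assignment within 20 kb, 0.13 with gene bodies and 5 kb, and 0.14 with any region within 100 kb, and from −0.51 to 0.39 when 1 library was left out; its exact permutation p was never below 0.333. A replicate block gave −0.061 (exact permutation p = 1, smallest possible 0.5), and same-numbered libraries did not deviate together (correlation 0.063 over the 2785 regions in all 4 lists), so the numbers were not taken to pair libraries. Member regions in all 4 lists, 4 as reported, were 2 with summit windows, within 20 kb and with gene bodies. They were 3 with a fold of at least 5 and at equal length. When 1 library was left out, 4 to 5 regions were in all the remaining lists, which is a looser class. Members with a region in both lists of a group were 4 for siChst7 and 5 for siControl as reported. In the same order they were 2 and 5 with summit windows and 2 and 2 with gene bodies. The order of the groups reversed within 20 kb (3 and 2) and with any region within 100 kb (6 and 5). The siChst7-only count was 2 with a fold of at least 5, at equal length and with any region within 100 kb, 0 with gene bodies, and 1 to 5 when 1 library was left out. The siControl-only count was 0 within 20 kb and with gene bodies, and 2 to 4 when 1 library was left out. Counts for single genes that were above 0 as reported gave 180 values over the alternatives, of which 33 moved by more than 1.5 times. With the counts that were 0 as reported included, 48 of 540 values moved, so some reported zeros were not stable either. The cause of these moves was not tested. Lists of unequal length and 2 libraries per group limit what absence from a list can show.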
